A study of Oryza sativa Indica Group with 9 samples.

Results

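The degradome of heated rice leaves was followed over 3 time points, with 1 library each after 0, 12 and 24 h at 45 °C. These are 3 of the 9 samples of the study, and the other 6 are small RNA libraries. All groups are leaves of three-leaf seedlings of HT54, an Indica breeding line described in the labels as heat tolerant, grown at 25 °C before the treatment. The 0 h leaves were not heated. No plants kept unheated for 12 or 24 h were sampled, so heat and elapsed time cannot be told apart. Each of the 3 degradome libraries stands alone, so differences between time points have no replicate check and are given by their size. The 95% intervals beside them are exact (Clopper-Pearson) and cover counting error only.

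In plants a microRNA (miRNA) loaded into an Argonaute protein pairs with a nearly complementary stretch of a target mRNA, and the mRNA is cut opposite the middle of the miRNA. The downstream fragment keeps its poly(A) tail and begins with an unprotected 5′ end at a fixed position. A degradome library sequences such 5′ ends, so reads that pile up at the predicted position mark a cut transcript. The number of reads there depends on the amount of the miRNA, on the amount of the target mRNA and on how long the fragment lasts, and these cannot be told apart in such data.

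The deposited cleavage tables held 1429 rows, which named several miRNA variants and transcript isoforms for the same cut. They were merged to 1 site per miRNA family and target locus, keeping the row with the most reads, which left 557 sites of 102 families in 519 loci. Reads were found at 324 sites at 0 h, 307 at 12 h and 302 at 24 h. The 55 sites with 10 or more reads in any library are described here. They belong to 24 families and 53 loci, 49 of them from the table of known and conserved miRNAs and 6 from that of new candidates. Counting sites that hold the same reads only 1 time leaves 47. At the threshold, 4 sites had 9 reads in their highest library, 4 had 10 and 5 had 11. The reads of 52 of the 55 sites began opposite base 10 of the miRNA, counted from its 5′ end, 2 opposite base 9 and 1 opposite base 11. Depth was 12554074 raw reads for the 0 h library, 11033581 for 12 h and 12960708 for 24 h, and 80.1 to 83.5% of these reads mapped to transcripts.

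The miRNA sequences that the results below turn on are the guides of the most-read and most unlike sites. They are written 5′ to 3′ in DNA letters as deposited, with the seed (bases 2 to 8) in capitals. The guides of the copper group were these.
osa-miR408-3p: cTGCACTGcctcttccctggc
osa-miR528-5p: tGGAAGGGgcatgcagaggag
osa-miR398b: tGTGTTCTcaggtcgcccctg

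The guides of the growth-regulating, auxin response, homeobox and GRAS factor sites were these, with osa-miR396d and osa-miR396e-5p sharing a seed.
osa-miR396d: tCCACAGGctttcttgaacgg
osa-miR396e-5p: tCCACAGGctttcttgaactg
osa-miR160a-5p: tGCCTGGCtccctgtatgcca
osa-miR166m_R-1: tCGGACCAggcttcattccc
osa-miR171a_1ss12CT: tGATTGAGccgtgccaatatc

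The guides of the miR169, miR172, miR159 and miR1425 sites follow, most of which had more reads at 24 h than at 0 h. The site of osa-miR169n and osa-MIR1430-p5 had fewer. The miR169 guides osa-miR169e_R-2 and osa-miR169n share their seed with osa-MIR1430-p5, and the miR172 guides share a seed as well.
osa-miR169e_R-2: tAGCCAAGgatgacttgcc
osa-miR169n: tAGCCAAGaatgacttgccta
osa-MIR1430-p5: tAGCCAAGaatggcttgcctatc
osa-miR172a: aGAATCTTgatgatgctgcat
osa-miR172b: gGAATCTTgatgatgctgcat
osa-miR159f_R-1: cTTGGATTgaagggagctct
osa-miR1425-5p: tAGGATTCaatccttgctgct

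Across the 55 sites, cleavage reads were mostly lower at 12 h and in part back at 24 h. After scaling to the raw reads of each library, the median ratio was 0.409 for 12 h over 0 h, 0.646 for 24 h over 0 h and 1.70 for 24 h over 12 h. At 12 h, 30 sites were at least 2-fold lower than at 0 h (54.5% of the 55) and 5 at least 2-fold higher (9.09%). At 24 h, 22 sites were at least 2-fold lower than at 0 h (40%) and 11 at least 2-fold higher (20%). Between 12 and 24 h the balance was the other way, with 17 sites at least 2-fold higher at 24 h (30.9%) and 7 at least 2-fold lower (12.7%). Requiring in addition that the interval exclude 1 left 28 lower (50.9%) and 4 higher (7.27%) at 12 h. It left 16 lower (29.1%) and 10 higher (18.2%) at 24 h, and 10 higher (18.2%) and 4 lower (7.27%) at 24 h over 12 h. Of the 55 sites, 23 reached 10 reads in 1 library only, 12 of them at 0 h, 5 at 12 h and 6 at 24 h. They were kept for being high there, so for them the interval is no stricter check. Sites that hold the same reads are each counted here.

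These splits rest on the scaling. With libraries scaled by the median ratio over the 24 sites that had 10 or more reads in every library, every 12 h over 0 h ratio is multiplied by 2.30 and every 24 h over 0 h ratio by 1.86. On that scale 16 sites were higher and 11 lower at 12 h, 20 higher and 9 lower at 24 h, and 13 higher and 10 lower at 24 h over 12 h. The change common to all sites is thereby set to none, so it shows which sites stood apart from the others. Sites that hold the same reads each count among the 24. These include the 4 sites of PC-5p-111336_20 (12 h over 0 h ratio 0.259) and 2 miR166 sites with nearly the same reads (0.396 and 0.392). Their low ratios tend to enlarge the 12 h multiplier. A version with shared reads counted 1 time was not computed. Scaling to reads mapped to transcripts gave 6 higher and 30 lower sites at 12 h, 10 higher and 22 lower at 24 h, with 14 higher and 8 lower at 24 h over 12 h.

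Each site was placed in 1 of 6 time patterns. A dip means 12 h at least 2-fold below both other times, and a peak at least 2-fold above both. Of the rest, lost means 24 h at least 2-fold below 0 h, gained at least 2-fold above it, and steady all 3 ratios under 2-fold. The lost pattern held 18 sites of 12 families (32.7% of the 55), and for 15 of them the interval excluded 1. A dip was seen at 10 sites of 10 families (18.2%), for 4 of which both intervals excluded 1. The gained pattern held 10 sites of 7 families (18.2%), 9 of them with an interval that excluded 1. Peaks were seen at 2 sites, both with intervals that excluded 1, 5 sites were steady, and 10 matched none of these. The read minimum bears on these counts, because a site with few reads enters through the library where it is high. Of the 18 lost sites 8 reached 10 reads at 0 h alone, and of the 10 dips 4 did so. Of the 10 gained sites 5 reached 10 reads at 24 h alone and 1 at 12 h alone. Of the 2 peaks 1 reached 10 reads at 12 h alone. Such sites were kept for being high there, so their intervals are no support. Among the sites with 10 or more reads in at least 2 libraries, the intervals excluded 1 for 10 lost, 4 dip, 4 gained and 1 peak sites. With sites that hold the same reads counted 1 time, there were 13 lost, 9 dips, 9 gained, 2 peaks and 5 steady among 47. At 20 of the 55 sites some ratio lay within 10% of 2-fold. Where that ratio sets the pattern, the pattern hangs on a small difference. On the median-ratio scale 8 of the 18 lost sites remained lost, 9 of the 10 gained sites remained gained, 5 of the 10 dips remained dips and both peaks remained peaks. Of the 5 steady sites 4 became gained and 1 a peak, so steady means near no difference only when raw reads set the scale.

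**Figure D1:**
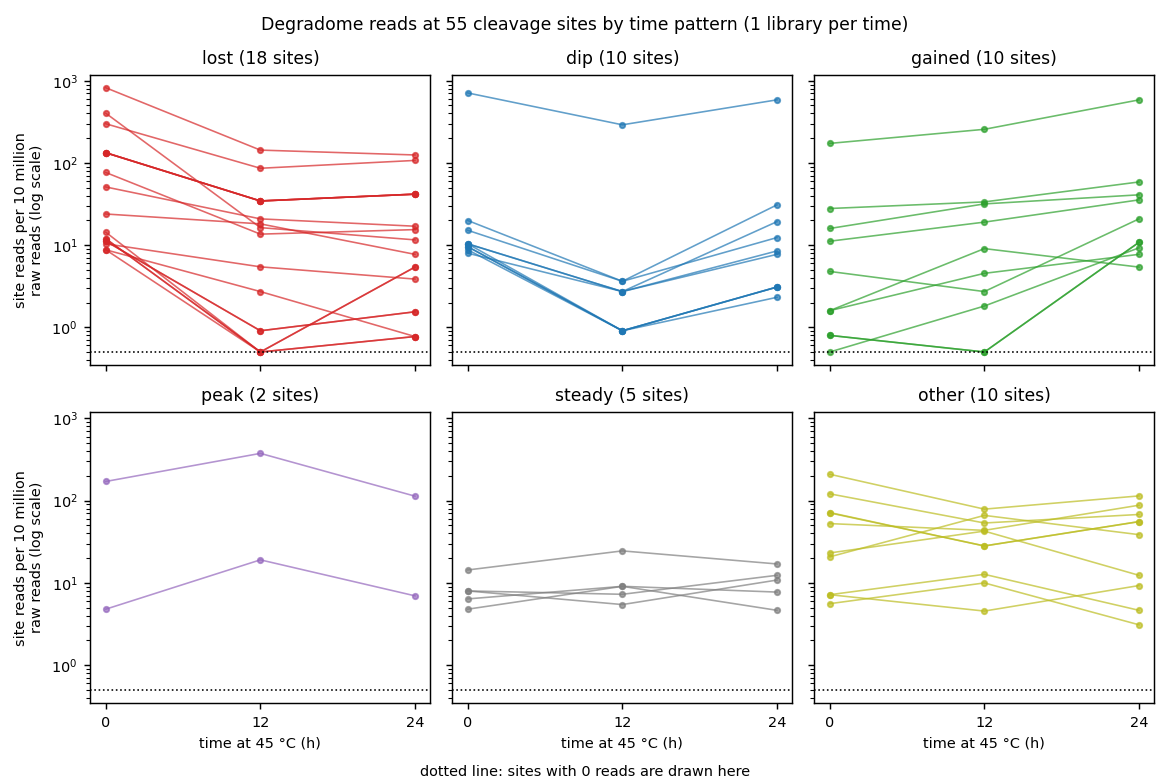
Reads at each of the 55 sites per 10000000 raw reads (vertical, log scale) against hours at 45 °C (horizontal), with 1 line per site and 1 panel per time pattern; sites without reads are drawn on the dotted line. The 18 lost sites end below their start, the 10 dips are lowest at 12 h, and the 10 gained sites end above their start.

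Among the copper-related families (miR397, miR398, miR408 and miR528), 4 of 18 merged sites had 10 or more reads, and 2 of the 4 were lost, a count too small to set against the 32.7% over all sites. These miRNAs are known for acting on mRNAs of copper-binding proteins, and in Arabidopsis miR397, miR398 and miR408 accumulate when copper is short. The median 24 h over 0 h ratio of the 4 was 0.343, against 0.646 over all 55. The miR408 site in LOC_Os08g37670, annotated as a cupredoxin (a small blue copper protein), had 1032, 158 and 162 reads at 0, 12 and 24 h. Its ratio was 0.174 at 12 h (0.146 to 0.206) and 0.152 at 24 h (0.128 to 0.180). Nearly all of the difference was there by 12 h, and between 12 and 24 h none could be seen at this depth (ratio 0.873, 0.697 to 1.09). On the median-ratio scale the ratios were 0.400 at 12 h and 0.283 at 24 h, still below 1.

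The miR528 site in LOC_Os07g38290, another cupredoxin, had 505, 18 and 15 reads at 0, 12 and 24 h. This gave a ratio of 0.0406 at 12 h (0.0238 to 0.0648) and 0.0288 at 24 h (0.0160 to 0.0479), the lowest of the 55 ratios at 24 h. At 12 h it was the lowest of the sites that had reads, since 6 others had 0 reads and so a bound or no ratio. On the median-ratio scale they were 0.0931 and 0.0535. The site stayed in category 0, the class of a site that holds the highest signal of its transcript, in all 3 libraries, as did the miR408 site. The other miR528 site, in LOC_Os06g06050, carries the annotation of MAX2, an F-box protein of strigolactone signalling in Arabidopsis. It had 9, 14 and 6 reads at 0, 12 and 24 h, and its interval at 24 h over 0 h was 0.189 to 2.03, so no difference could be seen at this depth.

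The miR398 site lies in LOC_Os07g46990, annotated as CSD1, a copper/zinc superoxide dismutase that removes superoxide. It had 29, 47 and 16 reads at 0, 12 and 24 h. The ratio was 1.84 at 12 h (1.14 to 3.04), 0.534 at 24 h (0.271 to 1.02) and 0.290 for 24 h over 12 h (0.153 to 0.520). The CSD1 site was therefore highest at 12 h, when both cupredoxin sites were already low. The miR397 site in LOC_Os05g38410, annotated as laccase 17, a copper enzyme of lignin formation in Arabidopsis, stayed under 10 reads, with 8 at 0 h, 2 at 12 h and 1 at 24 h.

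**Figure D2:**
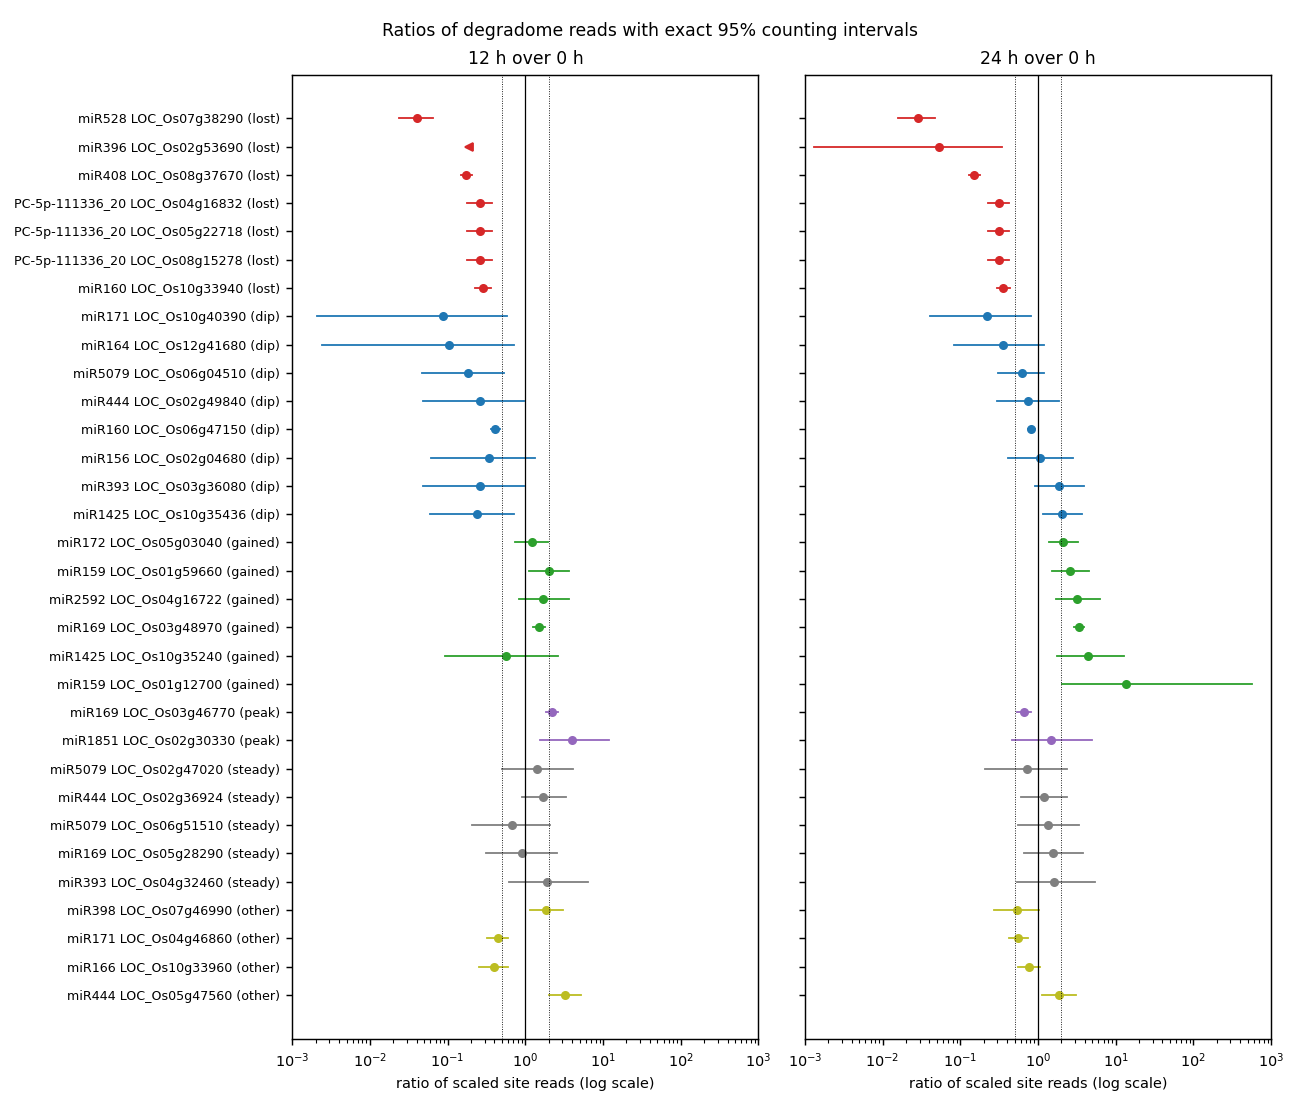
Ratio of scaled reads at 12 h over 0 h (left) and at 24 h over 0 h (right), log scale, for the 32 sites chosen by the naming rule that had 10 or more reads; bars are exact 95% counting intervals and dotted lines mark 2-fold. An arrowhead is a bound against 3 reads where the later library had 0, and no point is drawn where neither library had over 3 reads. The miR528 cupredoxin site lies farthest to the left in both panels.

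Of the auxin-related families (miR160, miR167, miR390 and miR393), 6 of 21 merged sites had 10 or more reads, with 2 lost, 2 dips, 1 steady and 1 of no pattern. That is near the shares over all sites, where 18 of 55 were lost and 10 of 55 dips. The miR160 family cuts mRNAs of auxin response factors (ARF), which bind and regulate auxin-responsive genes, and 4 of its 5 ARF sites reached 10 reads, all annotated as ARF16. The site in LOC_Os06g47150 had 892, 321 and 759 reads at 0, 12 and 24 h. It gave 0.409 at 12 h (0.359 to 0.466) and 0.824 at 24 h (0.747 to 0.909), a dip. The site in LOC_Os10g33940 had 376, 95 and 139 reads at 0, 12 and 24 h and was lost, at 0.358 for 24 h (0.293 to 0.436). The site in LOC_Os04g43910 had 96, 15 and 20 reads and was lost too, at 0.202 (0.118 to 0.329). The site in LOC_Os02g41800 had 263, 87 and 148 reads, a ratio of 0.545 at 24 h (0.443 to 0.669).

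All 4 ARF16 sites thus had their fewest reads at 12 h. The 24 h over 12 h interval was 0.552 to 2.38 for LOC_Os04g43910 and 0.953 to 1.63 for LOC_Os10g33940. Both include 1, so at these sites 12 and 24 h cannot be told apart. At 24 h LOC_Os06g47150 had a ratio whose interval lies above those of the other 3. Summed over the 5 ARF sites, reads were 1629 at 0 h, 518 at 12 h and 1067 at 24 h, a ratio of 0.362 at 12 h (0.327 to 0.400) and of 0.634 at 24 h (0.587 to 0.686), which on the median-ratio scale becomes 0.831 at 12 h and turns to 1.18 at 24 h. On that scale LOC_Os04g43910 was the only ARF16 site still lost, at 0.408 for 12 h and 0.375 for 24 h. There LOC_Os06g47150 turned to 1.53 at 24 h.

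The miR393 family cuts mRNAs of auxin receptor F-box proteins. Its site in LOC_Os04g32460, annotated as AFB2, one of these receptors in Arabidopsis, was steady with 6, 10 and 10 reads at 0, 12 and 24 h. The other miR393 site, in LOC_Os03g36080, has no annotation in the authors' table. It had 13, 3 and 25 reads at 0, 12 and 24 h, a dip with a 24 h over 12 h ratio of 7.09 (2.16 to 36.7). For miR167 and miR390 the best-covered sites had at most 4 and 2 reads, too few to describe a course.

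The leaf development families (miR159, miR164, miR166, miR171, miR319 and miR396) gave 14 of their 55 merged sites 10 or more reads, with 5 lost, 2 dips, 3 gained and 4 of no pattern, also near the shares over all sites. The median ratio of the 14 was 0.394 at 12 h and 0.506 at 24 h, beside 0.409 and 0.646 over all sites. Both described sites of growth-regulating factors (GRF) were lost, those of MYB factors gained, and those of the homeobox and GRAS factors mostly lowest at 12 h. Both GRF sites reached 10 reads at 0 h alone. So did the homeobox sites LOC_Os03g43930 and LOC_Os12g41860, the GRAS sites LOC_Os02g44360 and LOC_Os10g40390, and the miR164 site LOC_Os12g41680. The MYB sites LOC_Os01g12700 and LOC_Os05g41166 did so at 24 h alone. The directions of these sites are thus partly set by the read minimum.

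The GRF proteins are transcription factors that keep leaf cells dividing, and miR396 restricts them. The GRF5 site of LOC_Os02g53690 had 18, 0 and 1 reads at 0, 12 and 24 h. It was at least 5.27-fold lower at 12 h, taking 3 reads in place of 0, and its 24 h ratio was 0.0538 (0.00129 to 0.341). The GRF5 site of LOC_Os06g02560 had 11, 0 and 1 reads at 0, 12 and 24 h, with a 24 h ratio of 0.0881 (0.00205 to 0.606). Both sites went from category 0 at 0 h to category 4, a single read, at 24 h. Summed over all 9 GRF sites of miR396, reads were 52 at 0 h, 10 at 12 h and 12 at 24 h. The summed ratios were 0.219 at 12 h (0.0991 to 0.435) and 0.224 at 24 h (0.109 to 0.424), and on the median-ratio scale 0.502 and 0.415. The sum rests largely on both GRF5 sites, which reached 10 reads at 0 h alone. The other 7 GRF sites had 23, 10 and 10 reads, ratios of 0.495 at 12 h (0.210 to 1.08) and 0.421 at 24 h (0.179 to 0.920), which on the median-ratio scale turn to 1.14 at 12 h and become 0.783 at 24 h. The pairing of osa-miR396d with the 9 loci had alignment scores of 0 to 2.5 and that of osa-miR396e-5p scores of 1 to 3.5, where a lower score means fewer mismatches. The reads cannot tell which of these near-identical miRNAs made the cut.

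The miR166 family cuts mRNAs of class III homeobox-leucine zipper factors, which set the upper side of the leaf. The site in LOC_Os10g33960, annotated as REV, had 90, 31 and 72 reads at 0, 12 and 24 h. Its ratio was 0.392 at 12 h (0.252 to 0.595) and 0.775 at 24 h (0.560 to 1.07). The REV site in LOC_Os03g01890 had 89, 31 and 72 reads, nearly the same numbers, and both were taken as 1 observation. The PHB-annotated sites in LOC_Os03g43930 and LOC_Os12g41860 listed the same 15, 0 and 7 reads at 0, 12 and 24 h. This made them at least 4.39-fold lower at 12 h, or at least 1.91-fold on the median-ratio scale. They reached 10 reads at 0 h alone, so the bound is no support. Their reads enter the sum that follows. Counting shared reads 1 time, the summed ratio of these homeobox sites was 0.339 at 12 h (0.219 to 0.511) and 0.736 at 24 h (0.542 to 0.995), which on the median-ratio scale is 0.779 at 12 h and turns to 1.37 at 24 h.

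The GRAS factors annotated as HAM3, which in Arabidopsis maintain shoot meristems, are cut by miR171. LOC_Os04g46860 had 152, 59 and 88 reads at 0, 12 and 24 h, ratios of 0.442 (0.321 to 0.600) and 0.561 (0.426 to 0.734), which turn to 1.01 and 1.04 on the median-ratio scale. LOC_Os06g01620 differed from it with 66, 48 and 114 reads, a 24 h ratio of 1.67 (1.22 to 2.30). LOC_Os02g44360 had 13, 6 and 5 reads and was lost, with an interval of 0.104 to 1.11 at 24 h that includes 1. LOC_Os10g40390, whose listed guide is gma-miR171m with another seed, had 13, 1 and 3 reads, a dip. The intervals of the 24 h ratios of LOC_Os06g01620 and LOC_Os04g46860 do not overlap, so sites of 1 family in loci of 1 annotation moved differently beyond counting error.

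The miR164 site in LOC_Os12g41680, annotated as NAC1, a transcription factor of lateral root formation in Arabidopsis, had 11, 1 and 4 reads at 0, 12 and 24 h, a dip whose 24 h over 12 h interval includes 1. The miR159 family cuts mRNAs of MYB factors that take part in gibberellin responses. The MYB33 site in LOC_Os01g59660 had 20, 35 and 53 reads at 0, 12 and 24 h. Its ratios were 1.99 at 12 h (1.12 to 3.64) and 2.57 at 24 h (1.51 to 4.53). The sites in LOC_Os01g12700, annotated as MYB101, and LOC_Os05g41166, annotated as MYB33, listed the same reads. These were 1 at 0 h, 0 at 12 h and 14 at 24 h, a ratio of 13.6 at 24 h (2.06 to 573). Both sites reached 10 reads at 24 h alone, so this interval is no support. Their reads enter the sum that follows. All MYB sites of miR159 together, shared reads counted 1 time, had 21, 35 and 68 reads at 0, 12 and 24 h, a summed ratio of 3.14 at 24 h (1.90 to 5.39). The miR319 site in LOC_Os01g55100, annotated as TCP4, a factor of leaf margin growth in Arabidopsis, had 3, 2 and 1 reads.

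The phase transition families miR156, miR172, miR529 and miR535 had 6 described sites among 32, with 3 gained, 1 lost, 1 dip and 1 of no pattern, beside 10 gained of 55 over all sites. The median 24 h over 0 h ratio of the 6 was 1.70, beside 0.646 over all sites. Of the 6, LOC_Os07g13170, LOC_Os09g32944 and LOC_Os04g55560 reached 10 reads at 24 h alone. They were kept for being high there, so neither the median nor the gained count is support for a difference from all sites. The miR172 family acts on AP2-type factors that hold back flowering. Its RAP2.7 site in LOC_Os05g03040 had 35, 37 and 76 reads at 0, 12 and 24 h. The ratio was 1.20 at 12 h (0.737 to 1.97) and 2.10 at 24 h (1.39 to 3.24). In LOC_Os07g13170, also annotated as RAP2.7, there were 0, 2 and 12 reads at 0, 12 and 24 h, at least 3.87-fold higher at 24 h when 3 reads stand for 0. At 24 h both RAP2.7 sites held category 0, which neither held at 0 or 12 h.

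The AP2-annotated site in LOC_Os04g55560 had 9, 5 and 12 reads at 0, 12 and 24 h, with an interval at 24 h over 0 h of 0.499 to 3.47. The lost site of this group, in LOC_Os02g13100, has no annotation and belongs to the other strand, osa-miR172d-5p_R+1, with 30, 20 and 10 reads and an alignment score of 3.5. The miR156 family cuts mRNAs of SPL factors, which promote the adult phase. The SPL2 site in LOC_Os02g04680 had 10, 3 and 11 reads at 0, 12 and 24 h, a dip. The site in LOC_Os09g32944, annotated as an SBP-domain protein of the same kind, had 2, 5 and 10 reads, a 24 h ratio of 4.84 (1.03 to 45.5). Summed over 8 such sites of miR156 the ratio was 1.35 at 24 h (0.764 to 2.41), which does not differ from 1 beyond counting error. The best-covered sites of miR529 and miR535 had 1 read in their highest library.

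In the nutrient group (miR169, miR395, miR399, miR827 and miR2111) 4 of 26 merged sites were described, all of miR169. This family cuts mRNAs of NF-YA, the subunit of the CCAAT-binding nuclear factor Y that reads the DNA sequence. The NF-YA1 site in LOC_Os03g48970 had 217, 283 and 758 reads at 0, 12 and 24 h. Its ratio was 1.48 at 12 h (1.24 to 1.78) and 3.38 at 24 h (2.91 to 3.95), above 1 under each scaling tried. Among gained sites it had the most reads at every time. The NF-YA10 site in LOC_Os12g42400 went the other way, with 12, 1 and 4 reads at 0, 12 and 24 h, and the same reads are also listed for osa-MIR1430-p5 with its shared seed. The NF-YA10 site reached 10 reads at 0 h alone. Its 24 h interval of 0.0759 to 1.07 is thus no support for a difference from NF-YA1. Because of NF-YA1, the 7 NF-YA sites of miR169 summed to 242, 289 and 771 reads at 0, 12 and 24 h, a ratio of 3.09 at 24 h (2.67 to 3.58).

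The other miR169 sites have no NF-YA annotation. The one in LOC_Os03g46770 has no annotation, the highest alignment score of 4 and category 2, which leaves other positions of the transcript with more reads. It had 215, 415 and 147 reads at 0, 12 and 24 h, a peak. The site in LOC_Os05g28290, annotated as RANBP1, a partner of the Ran GTPase of nuclear transport, was steady at 10, 8 and 16 reads and belongs to osa-MIR169g-p3, a sequence named for the 3′ arm of its precursor. The miR827 site in LOC_Os04g48390, a transporter with an SPX domain, a domain of phosphate sensing, had 3, 1 and 4 reads.

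**Figure D3:**
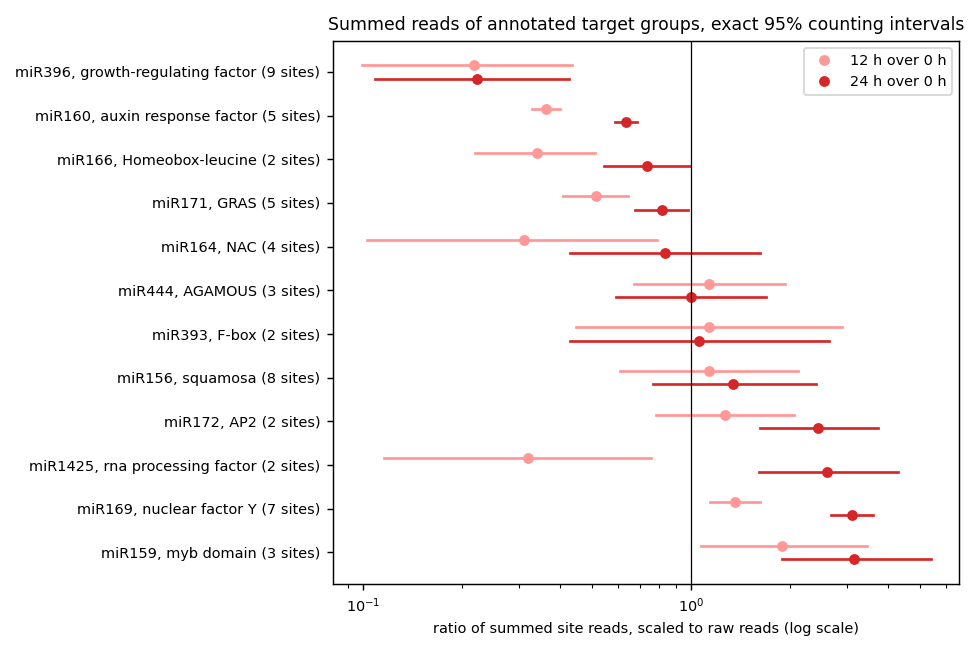
Ratio of summed site reads (log scale) at 12 h (light) and 24 h (dark) over 0 h for target groups taken by the annotation word, with at least 30 reads in all and shared reads counted 1 time; bars are exact 95% counting intervals. GRF sites lie farthest left at 24 h (0.224), and the NF-Y (3.09) and MYB (3.14) sites farthest right.

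The miR444 family, found in monocots, cuts mRNAs of MADS-box transcription factors. Of its 25 merged sites 4 were described, and their time courses differed in shape. The AGL16-annotated site in LOC_Os02g36924 was steady with 18, 27 and 22 reads at 0, 12 and 24 h. The AGL16-annotated site in LOC_Os02g49840 had 13, 3 and 10 reads, a dip. The site in LOC_Os05g47560, annotated as STN7, a thylakoid protein kinase and no MADS-box factor, had 26, 73 and 50 reads at 0, 12 and 24 h, a 12 h ratio of 3.19 (2.02 to 5.21), and an alignment score of 4. It held category 1 at 0 h and category 0 at 12 and 24 h. The site in LOC_Os11g37750, without annotation, had 7, 11 and 4 reads.

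Among rice or monocot families of narrow range, 2 of 10 merged sites were described, both of miR1425. They lie in LOC_Os10g35436 and LOC_Os10g35240, annotated as RPF2, a pentatricopeptide repeat protein that processes mitochondrial RNA in Arabidopsis. LOC_Os10g35436 had 19, 4 and 40 reads at 0, 12 and 24 h, ratios of 0.240 at 12 h (0.0593 to 0.721) and 2.04 at 24 h (1.15 to 3.73). LOC_Os10g35240 had 6, 3 and 27 reads at 0, 12 and 24 h, a ratio of 4.36 at 24 h (1.76 to 12.9). It reached 10 reads at 24 h alone, so this interval is no support. Both sites had most reads at 24 h and held category 0 in all 3 libraries. The 12 h ratio of LOC_Os10g35240 was 0.569 (0.0921 to 2.66) and turned to 1.31 on the median-ratio scale, so no difference from 0 h could be seen there at 12 h. The summed ratio of both RPF2 sites was 0.319 at 12 h (0.116 to 0.758), or 0.732 on the median-ratio scale, and 2.60 at 24 h (1.62 to 4.29). This sum includes the reads of LOC_Os10g35240. The best sites of miR1432, miR1850 and miR1862 had at most 2, 4 and 2 reads.

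The small RNA machinery was nearly unseen. Its only merged site, of miR162 in LOC_Os03g02970, for which the authors' table gives no annotation, had 5, 6 and 2 reads at 0, 12 and 24 h. The panicle families gave 7 merged sites, none with 10 reads, and the best, of miR2118 in LOC_Os02g50960, had 1, 3 and 3 reads.

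Outside the lists, 15 of 362 merged sites were described, with 8 lost, 2 dips, 1 peak, 2 gained and 2 steady. Of the 8 lost sites 6 belong to new candidates. The candidate PC-5p-111336_20 accounts for 4 of them, in LOC_Os04g16832, LOC_Os05g22718, LOC_Os08g15278 and LOC_Os09g19954, which all list the same 167, 38 and 54 reads at 0, 12 and 24 h and so make 1 observation, at 0.313 for 24 h (0.226 to 0.428). The candidates PC-3p-68026_54 and PC-3p-85855_35 differ by 1 base in length, share a seed and list the same 14, 1 and 2 reads in LOC_Os02g46510. All 6 had the highest alignment score, 4, and category 0 in no library.

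The remaining unlisted sites belong to miR394, miR1430, miR1851, miR2592, miR2606 and miR5079. The miR394 site in LOC_Os01g69940, annotated as a kelch repeat protein, had 11, 3 and 1 reads at 0, 12 and 24 h and a perfect alignment (score 0). Its 24 h ratio was 0.0881 (0.00205 to 0.606), or 0.164 on the median-ratio scale, where the interval includes 1 (0.00380 to 1.13). The site reached 10 reads at 0 h alone, so these intervals are no support. The miR1851 sites went apart, with 64, 23 and 22 reads in LOC_Os11g06720 (lost) and 6, 21 and 9 in LOC_Os02g30330 (a peak). The latter reached 10 reads at 12 h alone. The miR2592 site in LOC_Os04g16722 had 14, 21 and 46 reads, a 24 h ratio of 3.18 (1.72 to 6.27), without annotation and in category 2 throughout. The miR2606 site in LOC_Os01g51410, annotated as GLDP2, a glycine decarboxylase subunit of photorespiration, had 2, 10 and 7 reads, with a 24 h interval of 0.645 to 33.4. The 3 miR5079 sites had 25, 4 and 16 reads in LOC_Os06g04510 (a dip), 10, 6 and 14 in LOC_Os06g51510 and 8, 10 and 6 in LOC_Os02g47020 (both steady).

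The categories tell how a site ranks among the cut positions of its own transcript and do not depend on library scaling. Category 0 was held by 29 of the 55 sites at 0 h, 22 at 12 h and 31 at 24 h. No read was found at 1 site at 0 h, 6 at 12 h and 0 at 24 h. Between 0 and 12 h, 37 sites kept their category, 11 had another, 6 had a read only at 0 h and 1 only at 12 h. Sites that held category 0 at 0 h and not at 12 h numbered 9, against 2 that entered it. Of those 9, 4 were at category 4, which in these tables is always a single read, and 3 had no read, so most of the exits came with very few reads. Between 0 and 24 h, 41 sites kept their category and 13 had another. Then 5 left category 0 and 7 entered it.

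The sites that entered category 0 by 24 h belong to miR156, miR159, miR172, miR393 and miR444. In 3 of them the category was 1 at 0 h, at the SPL2 site LOC_Os02g04680, the AFB2 site LOC_Os04g32460 and the STN7 site LOC_Os05g47560. Those that left it by 24 h were both GRF5 sites and the miR394 site, each with 1 read, the miR528 site LOC_Os06g06050 and the miR166 site LOC_Os12g41860. The category was the same in all 3 libraries for 32 sites, 18 of them in category 0 and 13 in category 2. Both cupredoxin sites and all 4 ARF16 sites are among the 18, so their lower reads came without another position overtaking them.

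**Figure D4:**
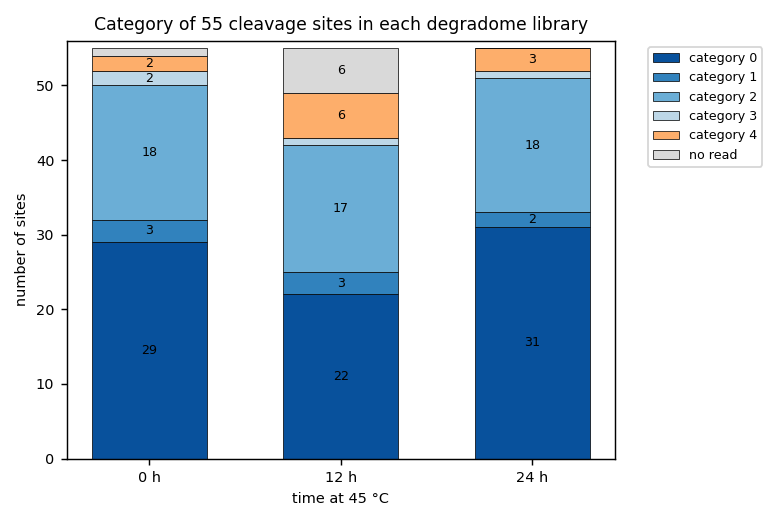
Number of the 55 sites in each category (vertical) in the degradome libraries of 0, 12 and 24 h (horizontal); grey marks sites without a read. Category 0 covers 29, 22 and 31 sites, and sites without a read number 1, 6 and 0.

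Sites with category 0 in any library (36) and in none (19) differed in kind. The median alignment score was 2 in the 36 and 4 in the 19, and 1 of the 36 but 15 of the 19 lacked an annotation. The median ratio of the 36 was 0.394 at 12 h and 0.760 at 24 h, and that of the 19 was 0.683 and 0.554. Lost sites numbered 9 in each, and gained sites 7 and 3. With shared reads counted 1 time within each class, lost sites numbered 9 in the first and 5 in the second. Lower reads at 12 h were therefore seen also in sites that held the top position of their transcript, while 9 of the 18 lost sites, or 5 with shared reads counted 1 time, never held it.

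Small RNA libraries of the same time points, replicates 1 and 3, give the level of each miRNA family in CPM, scaled by the trimmed mean of M values (TMM) over the listed miRNAs. They held 10315 to 227970 listed reads, with the fewest in 12 h replicate 3, and 2 libraries per time allow no p below 0.33 in an exact 2-sided permutation test, so levels are described. Of the 24 families with described sites, 10 had both 24 h libraries above both 0 h libraries (23.8% of 189 families overall) and 5 had both below (22.2%). With plain shares of the listed reads in place of TMM, 7 had both above and 7 both below. At 12 h it was 4 above (22.2% of the 189) and 4 below (19.6%), and 6 above and 3 below with plain shares. The miR408 family stood at 11019 and 19107 CPM for 0 h, 2649 and 12837 CPM for 12 h, and 2713 and 6350 CPM for 24 h. The miR528 family stood at 20084 and 22440 CPM for 0 h, 6932 and 14609 CPM for 12 h, and 5853 and 2530 CPM for 24 h. Both families were lower at 24 h, like their cupredoxin sites. For miR528 the mean level at 24 h was 0.197 of that at 0 h. Its cupredoxin site stood at 0.0288, or 0.0535 on the median-ratio scale, so this site's reads differed by more than the level of the miRNA. The other described miR528 site, in LOC_Os06g06050, stood at 0.646 (0.189 to 2.03). Levels and site reads are scaled in different ways.

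The miR396 family was higher at 24 h and its GRF sites were lower. It stood at 53532 and 70130 CPM for 0 h, 263810 and 74026 CPM for 12 h, and 686153 and 498994 CPM for 24 h. Its mean ratio was 9.58 at 24 h, while GRF site reads were 0.224 of those at 0 h. Without both GRF5 sites, which reached 10 reads at 0 h alone, the GRF ratio was 0.421, or 0.783 on the median-ratio scale. The miR160 family was higher as well, at 6721 and 12838 CPM for 0 h, 8336 and 4768 CPM for 12 h, and 41176 and 29468 CPM for 24 h, and its ARF sites had a summed ratio of 0.634, which turns to 1.18 on the median-ratio scale. At 12 h the miR160 libraries overlapped those of 0 h. Scaled to raw reads, all 4 ARF16 sites were then at least 2-fold below 0 h. On the median-ratio scale only LOC_Os04g43910 was, at 0.408.

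The miR172 family was higher at 24 h, like its RAP2.7 sites. It stood at 938 and 765 CPM for 0 h, 5486 and 1406 CPM for 12 h, and 4521 and 5595 CPM for 24 h. At 12 h both miR172 libraries were already above those of 0 h. The RAP2.7 site LOC_Os05g03040 then had a ratio of 1.20 (0.737 to 1.97), or 2.76 on the median-ratio scale. For the AP2 site LOC_Os04g55560 the 24 h over 0 h interval, 0.499 to 3.47, includes 1. The miR1425 family was higher at 24 h too, with 24032 and 31502 CPM against 7971 and 14059 CPM at 0 h, as were both RPF2 sites. Of these sites, LOC_Os10g35240 was kept through its 24 h reads alone. For miR169 the libraries overlapped, with 7450 and 11104 CPM for 0 h, 10534 and 3118 CPM for 12 h, and 13979 and 9475 CPM for 24 h, beside a site ratio of 3.38 at NF-YA1. The miR159 family was lower at 24 h, at 12849 and 12441 CPM against 31963 and 20415 CPM at 0 h, while its MYB sites had a summed ratio of 3.14.

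Over the 24 families, the median site ratio and the mean miRNA ratio showed no shared order, with a Spearman coefficient of -0.26 at 12 h and -0.00 at 24 h. The points share the same degradome and small RNA libraries. At 24 h the miRNA was higher and the sites lower in 10 families, both were lower in 6, both higher in 5, and the miRNA lower with sites higher in 3. On the median-ratio scale these counts were 6, 6, 9 and 3, so the first depends on the scaling.

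**Figure D5:**
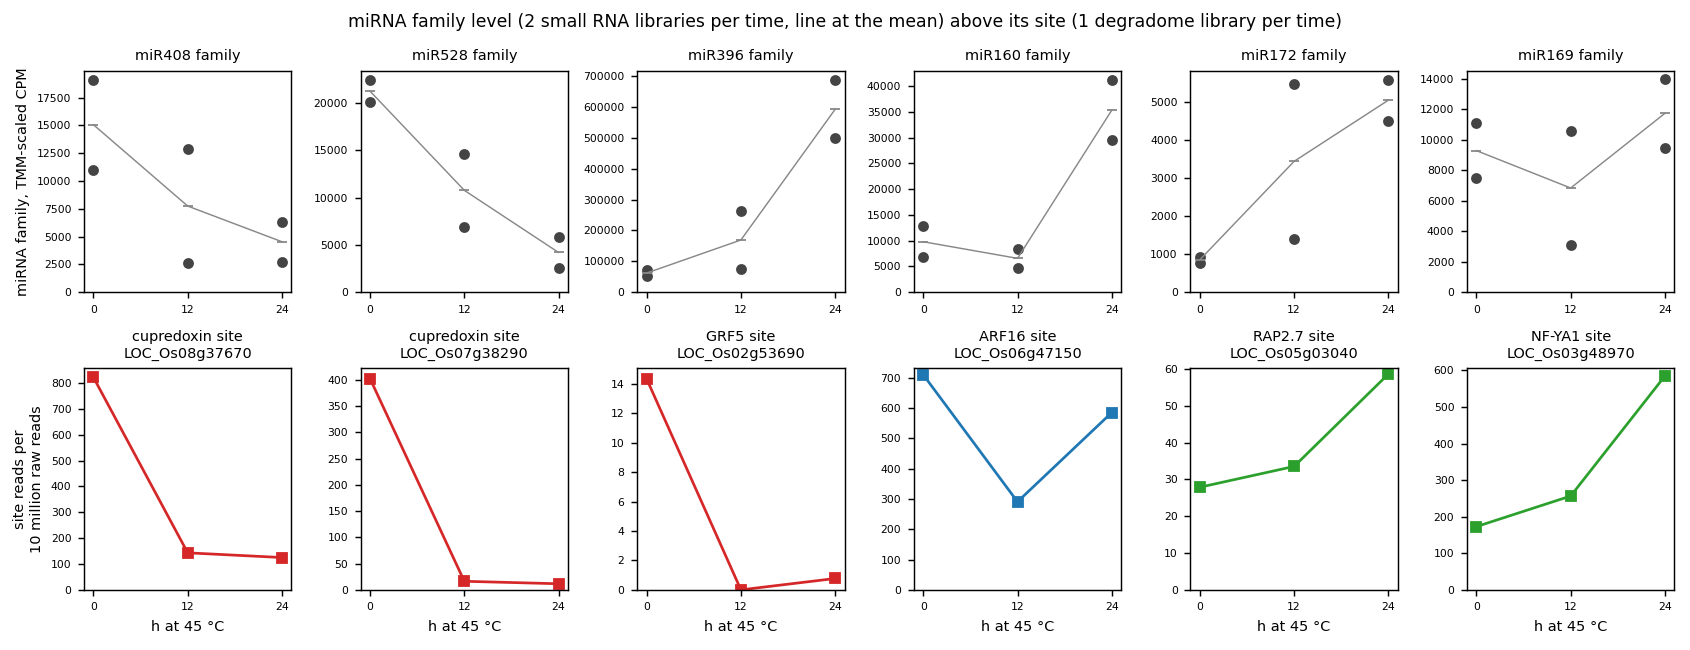
Top row, level of 6 miRNA families in TMM-scaled CPM, with 1 point per small RNA library (2 per time) and a line through the means; bottom row, reads of a site of each family per 10000000 raw reads, 1 library per time; horizontal axis, hours at 45 °C. The miR408 and miR528 families and their cupredoxin sites are both lower at 24 h, miR396 is higher while its GRF5 site is near 0, and miR172 and its RAP2.7 site are both higher.

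The other 502 merged sites stayed under 10 reads and can show no course on their own. Only 71 of them had reads in all 3 libraries, and 300 had reads in a single library, 112 at 0 h, 97 at 12 h and 91 at 24 h. In 280 the highest library held 1 read. Their reads summed to 564 at 0 h, 458 at 12 h and 437 at 24 h. These sums are not scaled to depth, which was lowest at 12 h (11033581 raw reads, against 12554074 at 0 h and 12960708 at 24 h).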

How the data were processed

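Raw read counts at each predicted cleavage site were deposited by the authors for 3 degradome libraries, with the reads divided among matching transcripts, a signal (TPB, divided reads scaled to raw reads) and 2 scores, the category (0 to 4) and the alignment score (at most 4), per the file headers. The target finder, mapper and transcript release were not given in the sources used here. Gene symbols are the authors', with Arabidopsis names. The miRNA tables hold expected counts deposited by the authors, rounded here, and their distinct sequences were summed by family and scaled with edgeR 4.0.16 (TMM, no test).

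Sites were merged, scaled to reads per 10000000 raw reads, kept at 10 or more reads in any library and compared with exact 95% intervals (scipy 1.17.1), taking 3 reads for 0. With 1 library per time no test was run. The steps were tested on simulated counts of better-covered sites with clear folds, which tell nothing about sites near the read minimum. Named sites are the 6 with the most reads per pattern and the best site of each listed family. Other sites among the 55 were named after their values were seen. The members and lists were chosen with earlier results of these data known. Alternatives covered the fold, read minimum, scaling, divided reads, merging, category and table.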

Additional observations from a re-analysis of the deposited data

How the results depend on the processing

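The counts of patterns moved with the fold, the read minimum, the scaling and the merging. Sites lost at 24 h numbered 18 as reported, 10 with a minimum of 20 reads, 39 with 5 reads, 8 with median-ratio scaling and 74 without merging. Gained sites numbered 10 as reported, 5 with 20 reads, 17 with 5 reads, 17 with median-ratio scaling, 6 with divided reads and 77 without merging. Dips numbered 10 as reported, 18 at a fold of 1.5, 6 at a fold of 3, 4 with 20 reads, 5 with median-ratio scaling and 66 without merging. Peaks numbered 2 as reported, 7 at a fold of 1.5, 0 at a fold of 3, 8 with median-ratio scaling, 1 with divided reads and 1 with categories 0 to 2 only. Steady sites numbered 5 as reported, 0 at a fold of 1.5, 16 at a fold of 3, 1 with 20 reads, 12 with 5 reads, 14 with median-ratio scaling, 3 with divided reads and 13 without merging. Sites of another category than at 0 h numbered 11 at 12 h and 13 at 24 h as reported, 2 and 3 with 20 reads, 28 and 33 with 5 reads, and 46 and 73 without merging. The median ratio was 0.939 at 12 h and turned to 1.20 at 24 h with median-ratio scaling, and stayed below 1 at both times in the other settings. The miR171 site LOC_Os04g46860 turned to 1.01 at 12 h with that scaling. Of the alternatives chosen after seeing the data, a maximum alignment score of 3 gave 10 lost, 1 peak and 3 steady sites, and category 0 in any library gave 9 lost, 0 peaks and 2 steady. The cause of these moves was not tested. No paired analysis was possible because each time point has 1 degradome library and no test was made.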
